A study of Mus musculus with 6 samples.

Results

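The genes examined here belong to the interleukin 6 and oncostatin M family: 3 ligands (Il6, Osm and Lif), 3 receptor chains (Il6ra, Il6st and Osmr) and the transcription factor Stat3. They were taken by symbol from the gene names of a single-cell RNA table, in which all 7 of 7 were found among 20394 genes. The cells were CD45+ cells sorted from digested joints of male wild type C57BL/6 mice (8 weeks old at purchase) with antigen-induced arthritis. In this model mice are immunized with methylated bovine serum albumin (mBSA, 10 μg) in complete Freund's adjuvant. They are challenged in the joint with 100 μg of mBSA on day 21. Isolated joints were digested on day 3 after that challenge, and the paper calls the sorted cells synovial. Of the 6 samples sequenced, 2 were from mice given the vehicle PBS and 4 from mice that received the peptide PEPITEM at 300 μg. Each was given into the peritoneum from day 21 on. All mice in the data therefore had arthritis, and no healthy joint was included.

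The deposited counts pool 32953 cells, and the barcodes carry a library number from 1 to 6. No source used here says which number is which sample, so the libraries are of unknown treatment, vehicle and PEPITEM were not compared, and no test was made. Each value below is a pooled level, given as the counts of a gene per 1000000 counts of the cell class (CPM) with an exact 95% Poisson interval, beside the range or median of the libraries that held at least 20 cells of the class. A count is 1 unique molecular identifier (UMI), the tag that marks 1 RNA molecule. Intervals cover counting error only and not the differences between mice. The libraries held 2919 to 9345 cells and 47273569 to 123367661 UMIs, with medians of 9923 to 14001 UMIs per cell. Between libraries 138 barcodes were shared.

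Interleukin 6 acts on cells that carry its own receptor chain, encoded by Il6ra, together with the shared signaling chain gp130, encoded by Il6st. Oncostatin M joins gp130 to its receptor chain, encoded by Osmr, and leukemia inhibitory factor (Lif) joins gp130 to the product of Lifr. All of these receptors signal through Janus kinases and phosphorylated STAT3, which turns on the feedback inhibitor Socs3. In the inflamed joint, interleukin 6 is a clinical drug target, and synovial fibroblasts and leukocytes are known sources of these cytokines.

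Cells were sorted into 20 classes of at least 50 cells by marker genes, none of which is among the 7 members. The class names stand for cells like the named type. They include 3321 pre-B cells, 847 granulocyte precursors and 523 stem and progenitor cells. Where in the digested joint these and the immature neutrophils lay was not tested, so the stages compared below need not share a site. Of 33 clusters, 31 took a class from their markers. Basophils had no cluster of their own and were taken cell by cell, as cells with 6 or more of 9 basophil markers. The 3 classes that matter most below are described here. Their markers were also used to name or gate them, so marker detection is no independent check. In the fibroblasts, all 10 fibroblast markers were each detected in at least 25% of the cells, Col1a1 was found in 86.1% of them, and the sort marker transcript Ptprc was found in 21.9%, against 95.8% of all cells. By this transcript, most of the fibroblasts did not match the CD45+ gate. Of the basophils, 84.4% had a UMI of Mcpt8, a basophil protease, and 8 of the 9 basophil markers were detected in at least 25% of these cells. The exception was Prss34, found in 23.4% of them. Mcpt8 was also found in 26.0% of granulocyte precursors and in 14.5% of stem and progenitor cells. The mature neutrophils had a median of 4901 UMIs per cell and the immature neutrophils 14569, so shares of positive cells are also given after each cell was thinned to 3000 UMIs.

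**Figure D1:**
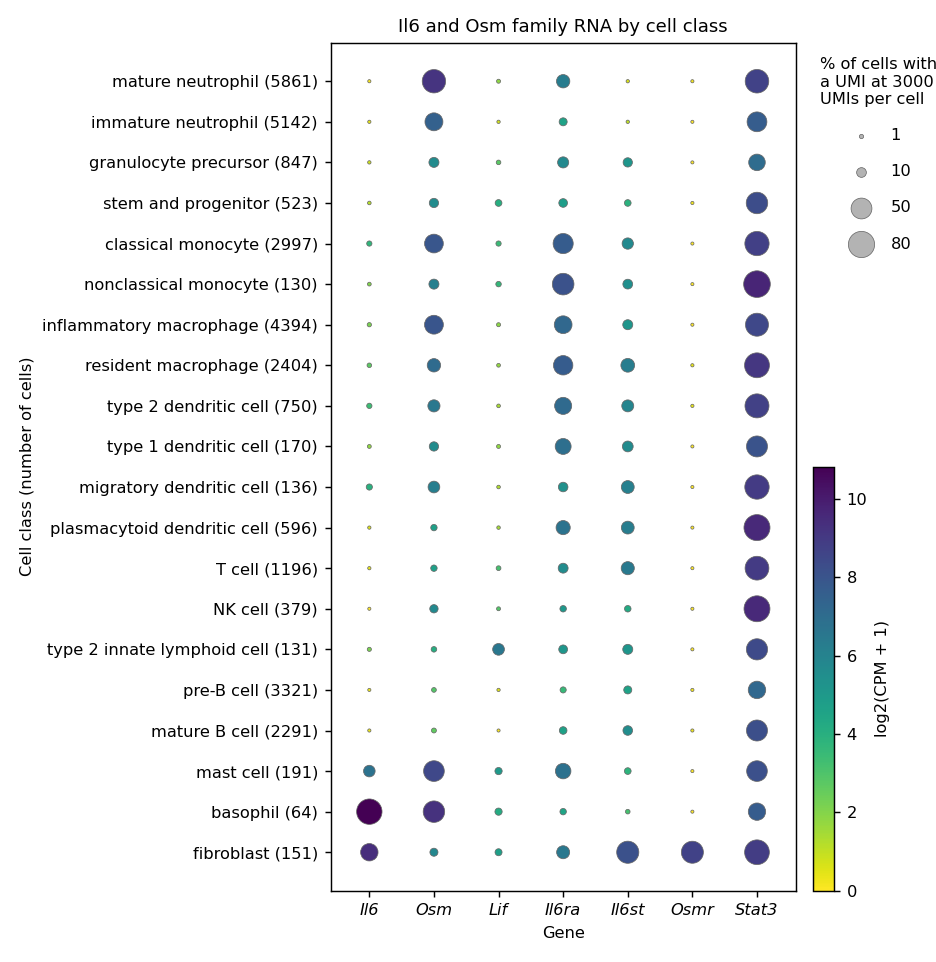
Level and detection of the 7 genes (columns) in 20 cell classes (rows, with the number of cells). The color gives log2(CPM + 1) over all libraries and the dot size the share of cells with a UMI of the gene after thinning to 3000 UMIs per cell. Il6 stands out in basophils and fibroblasts, Osm in basophils, mature neutrophils and mast cells, and Osmr in fibroblasts, whereas Stat3 is present in every class.

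Il6 was the ligand with the fewest positive cells. It had 5500 UMIs in 954 cells, or 2.90% of all cells, and 40 cells held 50% of these UMIs. The gene lies on chromosome 5 (GRCm38, 30013114 to 30019981, plus strand) and its annotated transcripts have at most 5 exons. Of the 100 cells with the most Il6 UMIs, 41 were basophils, 37 were fibroblasts, 10 were classical monocytes, 3 were inflammatory macrophages and 3 were mast cells. These 100 cells held 70.0% of the Il6 UMIs.

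The 300 bases around the start site of Il6 are shown because Il6 was the ligand most restricted to a few cells, and those of Osmr because it was the receptor most restricted to a class. Both sequences are from RefSeq (GRCm38.p6) and run from 250 bases before the start site to 50 bases after it. The Il6 stretch is chr5:30012864-30013163 on the plus strand and the Osmr stretch is chr15:6874264-6874563 on the minus strand. The GENCODE annotation of Osmr begins farther upstream, at 6874969, so its matches below hold for the RefSeq start site alone. Capitals mark matches on either strand to 4 motifs: GGGANNTTC for NF-kB, TTCNNNGAA for STAT factors, TGANTCA for AP-1 and TTGCNNAA for C/EBP.
Il6: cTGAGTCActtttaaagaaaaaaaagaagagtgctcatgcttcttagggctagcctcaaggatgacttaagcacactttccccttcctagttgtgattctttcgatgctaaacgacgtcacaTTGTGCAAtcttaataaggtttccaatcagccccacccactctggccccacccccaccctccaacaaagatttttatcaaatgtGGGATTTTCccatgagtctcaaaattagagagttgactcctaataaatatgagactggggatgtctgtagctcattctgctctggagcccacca
Osmr: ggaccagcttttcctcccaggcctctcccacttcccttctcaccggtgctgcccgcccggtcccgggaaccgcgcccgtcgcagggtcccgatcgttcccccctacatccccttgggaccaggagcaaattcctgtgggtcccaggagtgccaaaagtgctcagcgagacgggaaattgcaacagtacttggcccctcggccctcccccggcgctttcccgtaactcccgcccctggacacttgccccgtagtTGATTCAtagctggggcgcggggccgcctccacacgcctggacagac
The Il6 stretch held 1 match each for NF-kB, AP-1 and C/EBP, with the NF-kB match starting 44 bases before the start site, and none for STAT. The Osmr stretch held 1 match for AP-1 and none for the others. Of 32851 promoters of this length, 3.94% held a match for NF-kB, 7.81% for AP-1, 10.8% for C/EBP and 8.30% for STAT. A match describes the letters and does not show binding in these cells. Of the 7 members, 6 had a promoter in the table, and no STAT match was found in any of these 6.

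Basophils, rare granulocytes that release histamine and interleukin 4, had the highest pooled Il6 level of the 20 classes. This order was lost when clusters with mature neutrophil markers were left out, a removal that left 16 basophils. The 64 basophils held 1780 Il6 UMIs, or 32.4% of all, which is 1809 CPM (1726 to 1895). Il6 was found in 55 of the 64 cells (85.9%), and in 75.1% after thinning. Positive basophils had a median of 22 Il6 UMIs, and 1 cell had 297. By library, the level was 2945 CPM in library 1 (7 cells), 2039 in library 2 (27 cells), 1303 in library 3 (13 cells), 791 in library 4 (3 cells), 6538 in library 5 (5 cells) and 670 in library 6 (9 cells). Basophil Il6 was thus found in every library, although library 2 is the sole one with 20 basophils. From 3 basophil markers up, the Il6 level was higher in cells with more of them. Cells with 3 markers (54 cells) had no Il6 UMI, and the 20 cells with 4 had 28.4 CPM. The 14 cells with 5, just outside the gate, had 898 CPM, and the 18 cells with 6, just inside it, 1320 CPM. The level was 1462 CPM with 7, 2002 CPM with 8 and 4010 CPM in the 6 cells with all 9. Below 3 markers it went the other way, from 11.8 CPM with 0 markers to 1.45 CPM with 2.

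A finer clustering put basophils into a cluster of their own, of 53 cells, 44 of which were also gated. Their Il6 level was 3548 CPM (3388 to 3714), and 94.3% of them were positive. Il6 was itself the leading gene of that cluster, so this level is not independent of how the cells were grouped. The 20 gated basophils that fell elsewhere had a median of 25766 UMIs per cell and 328 CPM of Il6. In the coarser grouping, 43 of the 64 basophils sat in a cluster led by Ccl3 that was named classical monocyte by its markers, and the Il6 level of that cluster was 144 CPM with them and 24.1 CPM without them. That cluster is 1 of 4 clusters outside the neutrophils in which all 11 mature neutrophil markers were detected. All 53 cells of the finer basophil cluster lay in these 4 clusters. Without these 4 clusters 16 gated basophils remained, with 199 CPM of Il6, which is below the fibroblast level of 679 CPM. Of these 16 cells, 14 lay in the stem and progenitor cluster led by Angpt1 and held 17 Il6 UMIs, while 1 cell in a cluster led by Cd209a held 44 and 1 in a cluster led by Elane held 25. Of the 11 mature neutrophil markers, 6 were detected in at least 25% of the basophils, and summed they stood at 50159 CPM, from 834 to 89785 CPM by library. Their part in these levels was not tested.

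Fibroblasts, the matrix-forming cells of the synovium, held almost the same number of Il6 UMIs as the basophils. In 151 fibroblasts, 1763 UMIs (32.1% of all) were counted, which is 679 CPM (648 to 712). A UMI was found in 50.3% of them and in 34.7% after thinning. Positive fibroblasts had a median of 9.5 Il6 UMIs. The libraries differed widely: the Il6 level was 859 CPM in library 1 (49 cells) and 542 in library 5 (56 cells), but 1932 in library 3 (12 cells), 105 in library 2 (9 cells), 154 in library 4 (8 cells) and 110 in library 6 (17 cells). The range of fibroblast Il6 between libraries was therefore wider than the gap between fibroblasts and basophils, and both classes overlapped. In 5 of 6 libraries the basophil level was the higher, and in library 3 the fibroblast level was.

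Mast cells, tissue cells that share granule mediators with basophils, came next at 105 CPM (86.8 to 125), with 18.3% of 191 cells positive. Their libraries ran from 10.7 to 122 CPM. Migratory dendritic cells, which carry antigen to lymph nodes, had 14.4 CPM and classical monocytes 12.5 CPM (11.6 to 13.5). The monocyte level fell to 7.58 CPM when cells with 5 basophil markers were counted as basophils, rose to 18.3 CPM when 7 markers were asked of a basophil, and was 4.78 CPM without the 1% of monocytes with the most Il6. Resident macrophages had 5.64 CPM and inflammatory macrophages 3.49 CPM, with the classical monocytes above the resident macrophages in 6 of 6 libraries. Monocytes and macrophages were thus low per cell. Of all Il6 UMIs, classical monocytes held 11.8%, inflammatory macrophages 6.2% and resident macrophages 3.65%. Natural killer (NK) cells, chosen as a class that should lack Il6, had 0 UMIs in 379 cells, which allows a share of positive cells of up to 0.792%, at a median of 9887 UMIs per cell. Mature neutrophils had 4 Il6 UMIs in 5861 cells (0.12 CPM).

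Over whole libraries, the Il6 level ran from 4.25 to 24.6 CPM. Without fibroblasts, basophils and mast cells it ran from 3.01 to 4.83 CPM. The libraries differed in size, so the counts of these cells given here are not shares of a library. Library 1, of 3345 cells, had the highest level with 49 fibroblasts, 7 basophils and 39 mast cells. Library 5, of 9345 cells, had 10.1 CPM with 56 fibroblasts, 5 basophils and 68 mast cells. Library 3, of 2919 cells, had 16.5 CPM with 12 fibroblasts and 13 basophils. Library 2, of 5809 cells, had 15.2 CPM with 9 fibroblasts and 27 basophils. The part of these cells in the level of a library was not tested.

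**Figure D2:**
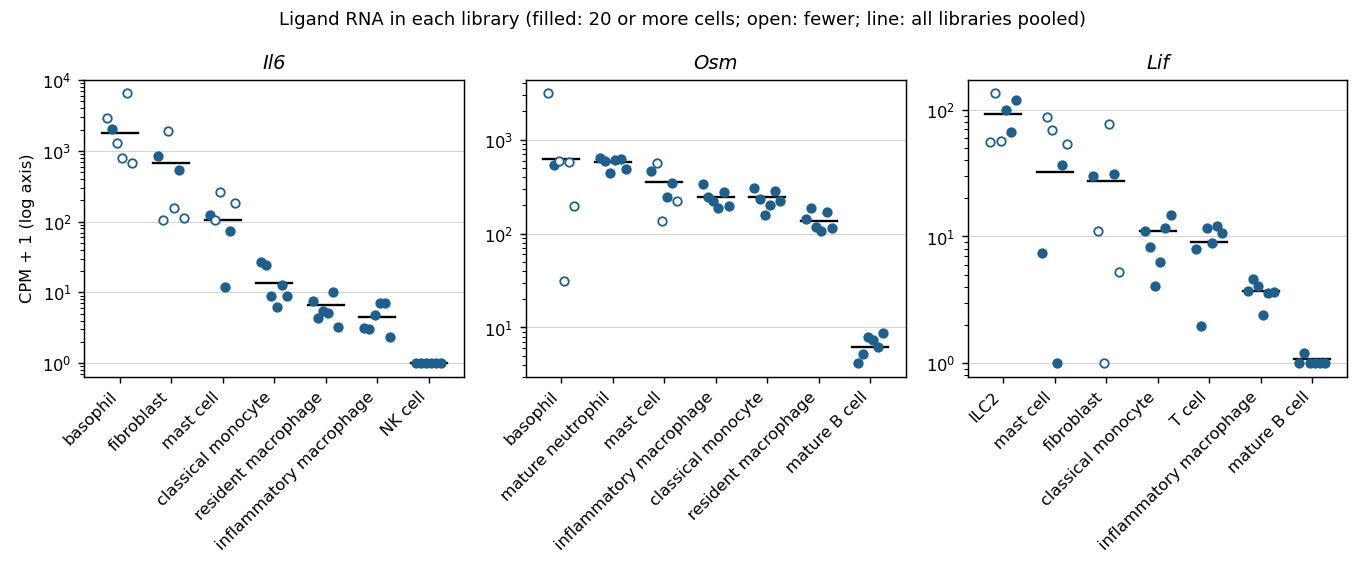
Ligand levels in the 6 libraries for 7 classes each of Il6, Osm and Lif. The y axis is CPM + 1 on a log axis, each point is a library (open where it held fewer than 20 cells of the class) and the line is the level over all libraries. Il6 in fibroblasts spreads from 105 to 1932 CPM, while Osm in mature neutrophils stays between 442 and 645 CPM.

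**Figure D3:**
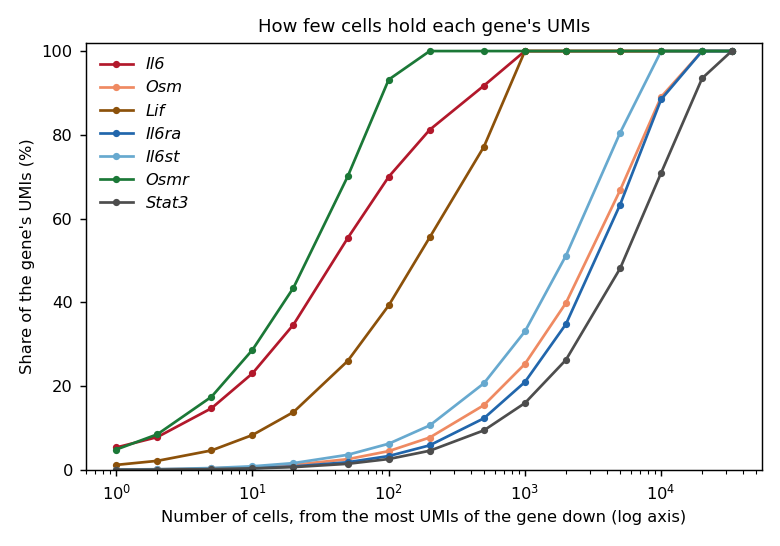
Share of the UMIs of each gene (y axis, percent) held by the cells with the most UMIs of it (x axis, number of cells on a log axis). The top 100 cells hold 93.2% of the Osmr UMIs, 70.0% of the Il6 UMIs and 39.3% of the Lif UMIs, against 4.53% for Osm and 2.64% for Stat3.

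Osm was spread over many myeloid cells. It had 89515 UMIs in 51.6% of all cells, and 2913 cells were needed to hold 50% of them. The gene lies on chromosome 11 (4236420 to 4241026, plus strand), where Lif is its neighbor: 16.53 kb separate them, with no annotated gene between. Lif was led by type 2 innate lymphoid cells, which ranked 18 of 20 for Osm, whereas mast cells and basophils were among the 4 highest classes for both genes.

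Basophils again had the highest pooled Osm level, at 625 CPM (576 to 676), with 68.8% of cells positive. By library it ran from 30.4 CPM in library 4 (3 cells) to 3125 CPM in library 1 (7 cells). Without library 1, which held 191 of their 615 Osm UMIs in 7 cells, the level was 459 CPM, below that of the mature neutrophils. In the finer basophil cluster, whose 53 cells all lay in the 4 clusters with mature neutrophil markers, it was 1058 CPM. With the basophil gate at 5 markers it was 517 CPM, also below the mature neutrophils, so this order rests on how basophils are drawn. Without the 4 clusters with mature neutrophil markers it was 53.2 CPM. That removal left 16 cells, 14 of them in the stem and progenitor cluster, and cannot settle the order. A UMI of both Il6 and Osm was found in 40 of the 64 basophils (62.5%), but in 15 of the 151 fibroblasts (9.93%).

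Mature neutrophils had 577 CPM of Osm (568 to 585), and 72.8% of them were positive. The lowest library had 442 CPM, the median was 600 and the highest 645. When every class was gated on single cells, 9834 mature neutrophils had 390 CPM of Osm. At a coarser clustering 6939 had 511 CPM, and at a finer one 5329 had 549 CPM. Immature neutrophils, rich in secondary granule RNA, had 181 CPM (178 to 183), with libraries from 117 to 216 CPM. The mature neutrophils were the higher in 6 of 6 libraries, and their libraries did not overlap. After thinning, 63.4% of mature and 36.8% of immature neutrophils were positive. Granulocyte precursors, the dividing forms before them, had 49.7 CPM.

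Mast cells had 352 CPM of Osm, with 48.7% positive and libraries from 247 to 458 CPM. Mature neutrophil markers summed to 34622 CPM in mast cells, from 16355 to 75008 CPM by library, and their part was not tested. Inflammatory macrophages had 246 CPM (243 to 249) and held 26.9% of all Osm UMIs. A share of 16.2% of all Osm UMIs lay in their cluster led by Apoe, 1 of the 4 clusters with all 11 mature neutrophil markers. The other inflammatory macrophage cluster held 10.8%, less than the mature neutrophils with 21.2% and the immature neutrophils with 19.4%. Classical monocytes had 242 CPM and could not be set apart from inflammatory macrophages, with each higher in 3 of 6 libraries. Resident macrophages had 135 CPM and were below the inflammatory macrophages in 6 of 6 libraries. Without the 4 clusters with mature neutrophil markers, the levels were 202 CPM in inflammatory macrophages, 121 CPM in resident macrophages and 220 CPM in classical monocytes, in which the order of the first and the last is turned. When every class was gated on single cells, Osm was 153 CPM in 73 inflammatory macrophages, 36.8 CPM in 1392 resident macrophages and 206 CPM in classical monocytes. Lymphoid cells were low. Mature B cells, chosen as a class that should lack Osm, had 5.25 CPM with 3.06% of cells positive at a median of 5620 UMIs per cell, and pre-B cells had 6.48 CPM. T cells at 25.5 CPM and NK cells at 52.0 CPM stood above these.

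Lif was rare, with 2173 UMIs in 3.02% of all cells. It lies on chromosome 11 (4257557 to 4272514, plus strand). Type 2 innate lymphoid cells (ILC2), tissue lymphocytes that make interleukins 5 and 13, had the highest level at 91.3 CPM (74.6 to 111), with 22.1% of 131 cells positive and 15.2% after thinning. Their libraries with 20 cells had 66.3, 98.8 and 118 CPM. All 6 libraries had Lif UMIs in ILC2, between 7 and 30 of them. The level was 68.2 CPM without the 2 cells with the most Lif.

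Mast cells had 31.4 CPM of Lif, but from 0 to 35.9 CPM in the libraries with 20 cells. Fibroblasts had 26.2 CPM (20.4 to 33.2), basophils 17.3 CPM (10.1 to 27.7) and stem and progenitor cells 15.3 CPM (13.1 to 17.7). The first of these intervals overlap, so the order of mast cells, fibroblasts and basophils is not fixed by the counts. Among monocytes, Lif was uneven: a cluster of 803 classical monocytes had 28.2 CPM with 13.7% positive, and it held 30 of the 100 cells with the most Lif UMIs, whereas all classical monocytes together had 10.1 CPM. The heat shock genes Hspa1a and Hspa1b were among the 5 leading genes of that cluster. Hspa1a stood at 1851 CPM in it, from 1168 to 2256 CPM by library, against 43.2 and 495 CPM in the other classical monocyte clusters, where Lif was 2.75 and 5.92 CPM. In ILC2 the pooled Hspa1a level was 177 CPM, against 277 CPM over all cells, but it ran from 5.20 to 560 CPM in the 3 libraries with 20 cells. The part of heat shock RNA in the monocyte Lif level was not tested. T cells had 8.02 CPM and were above mature B cells, which had 1 Lif UMI in 2291 cells (0.07 CPM), in 6 of 6 libraries.

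Among the receptor chains, Il6ra was highest in monocytes and macrophages, followed by dendritic cells. It lies on chromosome 3 (89864059 to 89913196, minus strand) and had 49903 UMIs in 46.7% of cells. Nonclassical monocytes, which patrol vessels, had 275 CPM (242 to 310) with 76.9% of 130 cells positive. Their level depended on how the class was drawn and was 159 CPM at the coarser and 188 CPM at the finer clustering, where classical monocytes led. Classical monocytes had 208 CPM (204 to 212), with libraries from 181 to 252 CPM, and resident macrophages 206 CPM (202 to 211), with libraries from 151 to 228 CPM. These last 2 classes could not be ordered, since the monocytes were the higher in 4 of 6 libraries. Inflammatory macrophages had 149 CPM and were below the classical monocytes in 6 of 6 libraries. Type 2 dendritic cells had 140 CPM with 80.7% positive, type 1 dendritic cells 119 CPM with 82.9% positive, and mast cells 113 CPM, with plasmacytoid dendritic cells and fibroblasts next.

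Mature neutrophils ranked 10 of 20 for Il6ra, with 78.0 CPM (75.0 to 81.1), and immature neutrophils had 22.8 CPM (21.9 to 23.8). The mature cells were the higher in 6 of 6 libraries, from 70.9 to 107 CPM against 16.4 to 27.8 CPM. After thinning, 19.9% of mature and 6.45% of immature neutrophils were positive. Fibroblasts had been chosen as the class that should lack Il6ra, but 49.7% of them had a UMI and the level was 87.9 CPM (76.8 to 100). They were not a background for this gene. In the fibroblasts 2 of 8 classical monocyte markers were detected in at least 25% of cells, with a sum of 3322 CPM (1127 to 5517 by library), and 2 of 12 resident macrophage markers, with a sum of 617 CPM (449 to 957 by library). Their part in the Il6ra level was not tested. The lowest class was pre-B cells, with 10.9 CPM.

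Il6st had its highest level in fibroblasts and was at the edge of detection in neutrophils. It lies on chromosome 13 (112464070 to 112510086, plus strand), 9.811 kb from Il31ra on the other strand, and had 17263 UMIs in 25.4% of cells. Fibroblasts had 278 CPM (258 to 299), with 95.4% of cells positive, and their 6 libraries ran from 220 to 428 CPM. T cells had 85.1 CPM (80.3 to 90.2), plasmacytoid dendritic cells 77.3 CPM and resident macrophages 77.0 CPM. T cells were above either of these in 4 of 6 libraries, so this order was not the same in every library. Resident macrophages were above inflammatory macrophages, which had 35.6 CPM, in 6 of 6 libraries.

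Mature neutrophils had 19 Il6st UMIs in 5861 cells, or 0.58 CPM (0.35 to 0.90), and immature neutrophils 105 UMIs in 5142 cells, or 1.09 CPM (0.89 to 1.32). The highest library reached 2.79 CPM in mature and 1.53 CPM in immature neutrophils. Granulocyte precursors had 34.8 CPM (32.7 to 36.9), with libraries from 5.27 to 53.1 CPM. The level of Il6st RNA was thus lower in neutrophils than in their precursors and in every other class. Basophils at 8.13 CPM and mast cells at 13.1 CPM came next from below, with 3.12% and 6.28% of cells positive.

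The meeting of Il6ra and Il6st in the same cell followed from this. In 30.1% of mature neutrophils Il6ra was found without Il6st, and both were found in 10 of 5861 cells (0.171%). In resident macrophages both were found in 48.8% of cells, in classical monocytes in 45.6%, in inflammatory macrophages in 39.8% and in fibroblasts in 49.7%. After thinning, the shares with both were 10.1% in resident macrophages, 6.86% in classical monocytes, 11.1% in fibroblasts and 0.061% in mature neutrophils. T cells had Il6st alone in 27.1% of cells and both in 12.2%. Basophils had both in 1 of 64 cells.

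**Figure D4:**
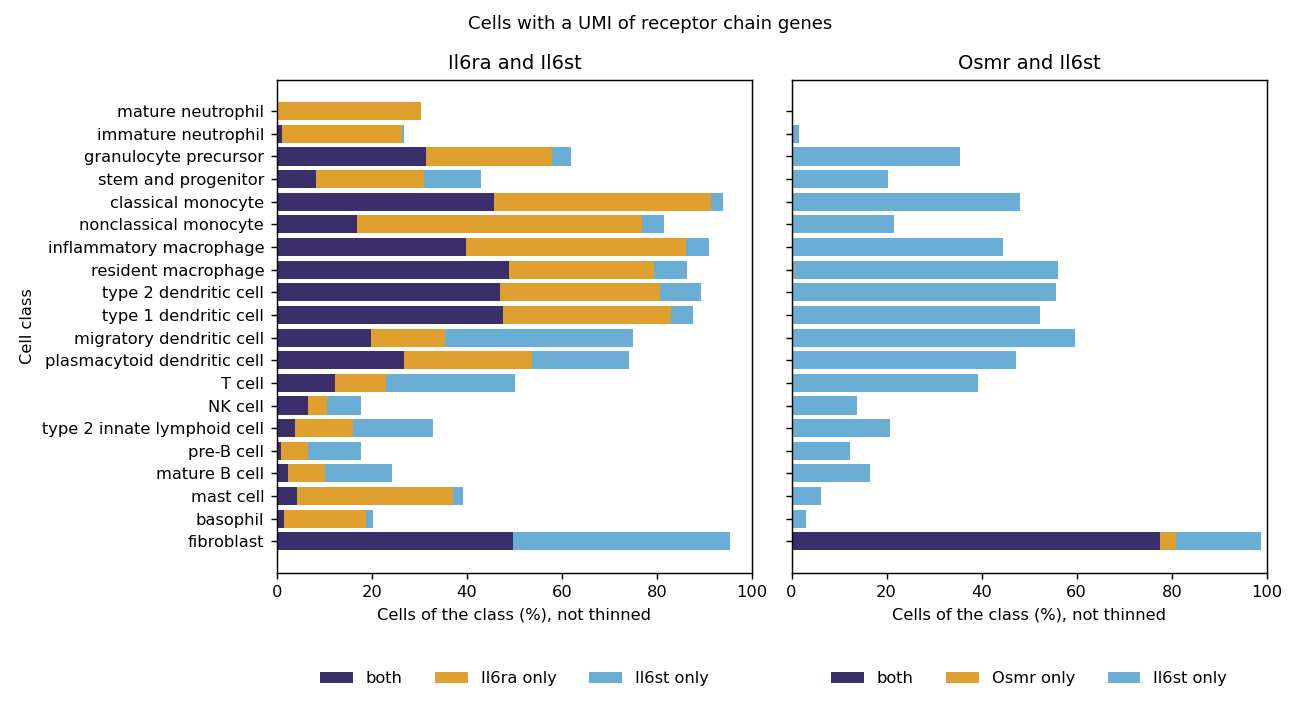
Share of cells of each class (x axis, percent, not thinned) with a UMI of both receptor chains, of the first only or of gp130 (Il6st) only. Neutrophils show Il6ra without Il6st, and the combination of Osmr and Il6st is seen in 77.5% of fibroblasts.

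Osmr was found almost entirely in fibroblasts. It lies on chromosome 15 (6813577 to 6874969, minus strand), and 92.5% of its 1160 UMIs were in the 151 fibroblasts. Their level was 414 CPM (389 to 439), with 80.8% positive and 56.1% after thinning. The libraries ran from 245 CPM in library 4 (8 cells) to 691 CPM in library 3 (12 cells), and libraries 1 and 5, with 49 and 56 cells, had 418 and 413 CPM. The level of Osmr thus varied less between libraries than that of Il6 in the same cells. Outside the fibroblasts, 87 UMIs were counted in 38 of 32802 cells, and 52 of these 87 were in the 12 cells gated as endothelial, at 240 CPM. Endothelial cells were too few to count as a class. The fibroblast cluster held 161 cells and 1786 Il6 UMIs before single cells were gated out of it, and the class 151 cells and 1763. The endothelial cells held 23 Il6 UMIs, so those of them with Il6 were gated out of the fibroblast cluster.

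The next class, resident macrophages, had 0.34 CPM of Osmr. Mature B cells and pre-B cells, chosen as classes that should lack it, had 0.21 and 0.14 CPM, so no class of leukocytes stood clearly above this background. Basophils, mast cells, T cells, NK cells and 7 other classes had 0 UMIs, and the limits that this sets on the share of positive cells run from 0.058% in immature neutrophils to 4.69% in basophils. Osmr and Il6st were found together in 117 of the 151 fibroblasts (77.5%). Osmr with Il6 was found in 71 (47.0%), and 5 of the 76 Il6-positive fibroblasts had no Osmr UMI. Osmr with Osm was found in 22 (14.6%). The class with the most receptor RNA was thus low in Osm, at 55.9 CPM, and the classes with the most Osm had 0 to 0.15 CPM of Osmr. In the fibroblasts the mature neutrophil markers summed to 24579 CPM, from 42.0 to 53804.5 CPM by library. The same sum was 255304 CPM in mature neutrophils. Their part in the Osm counts of fibroblasts was not tested.

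Stat3, on which these receptors converge, was found in every class. It lies on chromosome 11 (100885098 to 100939540, minus strand) and had 164544 UMIs in 84.5% of cells. Nonclassical monocytes had 826 CPM (769 to 886), plasmacytoid dendritic cells 770 CPM (751 to 790) and NK cells 762 CPM (738 to 787). The library ranges of these 3 classes overlapped, and with the other ways of drawing classes the leading one was plasmacytoid dendritic or NK cells. Resident macrophages had 554 CPM and were below NK cells in 6 of 6 libraries. At the low end stood pre-B cells with 148 CPM (144 to 153) and granulocyte precursors with 131 CPM (127 to 135), in this order in 6 of 6 libraries. Mature neutrophils had 411 CPM (404 to 418), with libraries from 382 to 440, and immature neutrophils 203 CPM, with libraries from 155 to 223, so that the 2 stages did not overlap. Mature B cells had 298 CPM and were above pre-B cells in 6 of 6 libraries.

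The neutrophils fell into 7 clusters that could be ordered by the summed RNA of the granule genes Camp, Ngp, Ltf and Lcn2, from 109755 CPM down to 2022 CPM. From the first to the last in that order, Osm was 174, 90.4, 316, 366, 485, 661 and 606 CPM. Il6ra was 17.8 CPM in the first and 133 CPM in the last, and Stat3 207 and 528 CPM. Socs3, the feedback inhibitor, was 3.0 CPM in the first and 153 CPM in the last. All 4 genes were higher at the low-granule end, although none rose at each step. Il6st stayed between 0.41 and 1.80 CPM over all 7 clusters. These clusters were built from the same cells and genes, so the order describes them and is not a test.

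**Figure D5:**
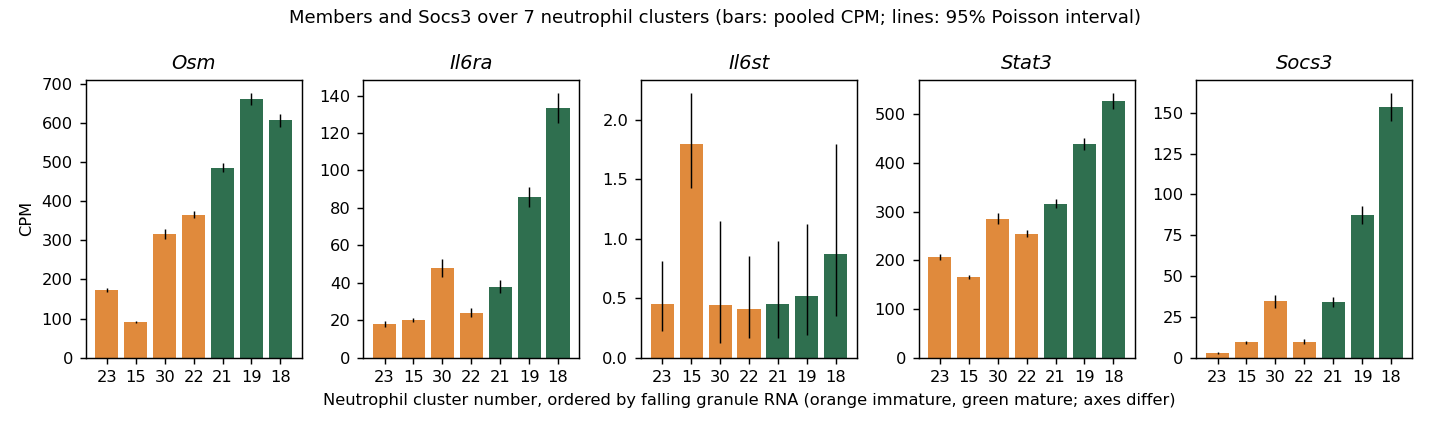
Levels of Osm, Il6ra, Il6st, Stat3 and Socs3 (y axes, CPM, each with its own scale) in 7 neutrophil clusters, ordered from high to low granule RNA. Bars are pooled levels and lines 95% Poisson intervals. Osm, Il6ra, Stat3 and Socs3 are higher toward the low-granule end, while Il6st stays under 2 CPM.

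The wider family was read from a list of 49 genes by role, of which 47 are in the table used here. A gene was counted where its highest class reached 50 CPM. This is a cut on level and not on detection: Tyk2 and Il31ra missed it but were found in 20.1% and 22.6% of all cells. Of all 20394 genes, 7009 with at least 50 CPM in 1 class and 200 UMIs, cell type markers left out, were compared by pattern below. The counts by role did not use the limit of 200 UMIs or leave out markers. They were not tested against this background, and the list was chosen by known role. Of 10 ligand genes, 4 reached 50 CPM: Il6, Osm, Lif and Ebi3, a subunit of interleukins 27 and 35, with 78.9 CPM in immature neutrophils. Il11 reached 9.25 CPM, in fibroblasts. Il27 reached 8.42 CPM, in nonclassical monocytes. Ctf1, Ctf2 and Cntf, neurotrophic members, had at most 50 UMIs each in all cells.

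Of 8 receptor genes, 6 reached 50 CPM. Lifr, the receptor chain for Lif, had 170 CPM in plasmacytoid dendritic cells, 89.6 CPM in resident macrophages and 52.4 CPM in fibroblasts, and lay 215.644 kb from Osmr on chromosome 15. Il11ra1, the receptor chain for interleukin 11, had 221 CPM in fibroblasts and 25.5 CPM in the next class. Il27ra had 53.5 CPM in T cells. Il31ra, the partner of Osmr in the interleukin 31 receptor, had at most 45.3 CPM, and its level over all cells of a library ran from 7.80 to 47.1 CPM, a wider range, as a ratio, than for any of the 7 members except Osmr. Adam17 and Adam10, proteases that cut the interleukin 6 receptor from the cell surface, had their highest levels in nonclassical monocytes, with 185 CPM, and in pre-B cells, with 496 CPM.

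Among the 8 kinases, phosphatase and transcription factors, 7 reached 50 CPM, and the exception was Tyk2. Jak1, the main kinase of gp130, had 674 CPM in NK cells. Jak2 had 1024 CPM in ILC2 and 969 CPM in migratory dendritic cells. Of the 6 feedback inhibitors, 5 reached 50 CPM. Socs3 was highest in fibroblasts with 686 CPM (655 to 719), where 92.1% of cells were positive, followed by resident macrophages with 374 CPM and inflammatory macrophages with 202 CPM. It was 81.9 CPM in mature and 10.3 CPM in immature neutrophils. Of the 14 genes known as Stat3 targets in many cell types, all reached 50 CPM. Fibroblasts were the highest class for Socs3, Timp1, Saa3 and Myc, and mature neutrophils for Cebpb, Lrg1, Mcl1 and Hif1a. Immature neutrophils led for Hp, and each remaining target was highest in some other class.

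Fibroblasts were the class with the highest level for 9 of the 42 family genes with at least 200 UMIs. Over all genes with at least 200 UMIs the share was 9.67%, or 1370 of 14161. The 9 genes were Il6st, Osmr, Il11ra1, Clcf1, Socs1, Socs3, Timp1, Saa3 and Myc. The list was chosen with earlier results of these data known, so no test was made of this count. Nonclassical monocytes were the highest class for 7 of the 42: Il27, Il6ra, Il31ra, Adam17, Ptpn11, Stat3 and Bcl6. Their share of the 14161 genes was 5.06%, and for Il6ra and Stat3 their lead depended on how the class was drawn. Mature neutrophils and ILC2 led for 4 of the 42 each, and for 5.00% and 4.66% of the 14161. Basophils were the highest class for 2 of the 42, Il6 and Osm, and for 2.13% of all genes. These counts were not tested either.

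Genes with the most similar pattern over the 20 classes were sought by Pearson correlation of log2(CPM + 1) among 7009 genes. Cell type markers were left out of these, so a marker may have a closer pattern than the genes named here. The classes differ in depth and number of cells, and all share the same 6 libraries. For Osm they were Nlrp3, the sensor of an inflammasome (r = 0.94), Il15 (r = 0.93) and Clec4e (r = 0.92). For Osmr they were 1500015O10Rik, Ptn and Gas1, each with r = 1.00 and its highest level in fibroblasts. Osmr was at 0.34 CPM or less in every other class, so these r values rest on the fibroblasts alone. For Il6 they were Adamtsl1 (r = 0.84), Atp8b1 (r = 0.82) and Abca8b (r = 0.80), for Lif Fam46a (r = 0.83), Dnaja1 (r = 0.80) and Rab4a (r = 0.79). For Il6ra they were Asah1 (r = 0.84), Atf3 (r = 0.83) and Plekho2 (r = 0.83), for Il6st Camsap2 (r = 0.89), Slc41a1 (r = 0.88) and Rab12 (r = 0.88), and for Stat3 Ptpn1 (r = 0.75), Mef2a (r = 0.74) and Irf1 (r = 0.73).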

How the data were processed

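CD45+ synovial cells of 6 samples were sequenced with Chromium Single Cell 3′ chemistry. The authors mapped reads with Cell Ranger 7 (mm10), lowered ambient RNA with SoupX, removed doublets with DoubletFinder and filtered cells with Seurat. The authors deposited 1 table of whole UMI counts, 20394 genes by 32953 cells, not scaled for depth. It stores 1724738 zeros, which the ambient correction may have emptied. Such a correction can lower rare counts in low classes. No further doublet caller was run.

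Counts were scaled to 10000 per cell, logged after adding 1, limited to 2000 variable genes, reduced to 30 principal components and clustered by the Leiden method (15 neighbors, resolution 1.0, no integration) with scanpy 1.11.5 and leidenalg 0.10.2 under Python 3.11.15. Clusters were named for the class best represented by markers among the 10, then the 30, leading genes, with at least 3 markers detected in 25% of the cells. Cells with 60% of the markers of basophils, endothelial, erythroid or megakaryocyte cells, classes that had no cluster, were gated. Plasma cells, a listed class that also had no cluster, were not gated. Type 1 and migratory dendritic cells were gated within the type 2 dendritic cell cluster. An antibody-gene cluster and a cycling cluster (1222 cells) had no name. The naming rule and this gate were set after the data had been seen, and the members, markers and lists were chosen with earlier results of these data known. Named genes are the members, the family list and, for each member, the 3 genes of most similar pattern. One gene of the family list is not reported here, and the counts over the list leave it out. Genes compared for pattern had at least 50 CPM in 1 class and 200 UMIs and were not cell type markers.

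CPM is the sum of UMIs of a gene per 1000000 UMIs of a class, with exact Poisson intervals. Levels were not scaled by gene length, so values are compared between classes and not between genes. Shares were thinned to 3000 UMIs by their exact hypergeometric expectation, which left out cells below that depth (706 of the mature neutrophils, 59 of the mast cells and 2 of the basophils, for example). The functions were tested on simulated data. No fit between treatments was made. Gene positions are from GENCODE vM21 and promoters from RefSeq, both on GRCm38. In the sample labels PBS has 2 samples and PEPITEM 4. Alternatives are given in the closing section. Depth limits rare genes: 3 UMIs was the floor used for a count of 0.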

Additional observations from a re-analysis of the deposited data

How the results depend on the processing

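No paired analysis was possible because no source used here links the library numbers to the samples, so the fits of vehicle against PEPITEM, with or without a replicate block, were not run. No result has a test, and a value counts as moved where it leaves the 95% counting interval of the reported one. Gate limits of 5 and 7 markers, the removal of shared barcodes and the removal of the 4 clusters with all 11 mature neutrophil markers were chosen after seeing the data. Il6st, Osmr and Lif kept their leading class under the 3 other ways of drawing classes. Il6 and Osm kept theirs in 2 of 3, Il6ra in 1 of 3 and Stat3 in 0 of 3. For Il6 and Osm these 2 are no independent check. At Leiden resolution 0.5 the same gate drew the same number of basophils, 64, with the same levels. At resolution 2.0 Il6 was itself the leading gene of the basophil cluster. The single-cell gate left 42 basophils, under the minimum of 50 cells for a class, which is why fibroblasts and mature neutrophils then led. Without the 4 mixed clusters, the 16 basophils left stood below fibroblasts in Il6 and below mature neutrophils in Osm. Of these 16, 14 lay in the stem and progenitor cluster, so this removal cannot settle either order.

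Basophil Il6 was 1809 CPM. It was 3548 CPM at Leiden resolution 2.0, 3098 with the single-cell gate, 2105 without cells above 40000 UMIs, 2039 as the median of libraries with 20 cells, 1551 without the top 1% of cells, 199 without the 4 mixed clusters, 1594 with the gate at 5 markers and 2008 at 7 markers. Basophil Osm was 625 CPM and, in the same order, 1058, 1089, 683, 533, 553, 53.2, 517 and 693 CPM. The 4 mixed clusters held 48 of the 64 basophils, so that removal leaves 16 cells. They also held all 53 cells of the basophil cluster at resolution 2.0. Lif in ILC2 fell from 91.3 to 68.2 CPM without the top 1% of cells. Il6ra in nonclassical monocytes moved from 275 to 159 CPM at resolution 0.5, 188 at 2.0 and 242 with the single-cell gate, and Stat3 in the same cells from 826 to 462, 613 and 660 CPM. With the single-cell gate, fibroblast Il6st was 335 CPM and Osmr 498 CPM. Osmr was 464 CPM without cells above 40000 UMIs and 382 CPM without the top 1% of cells. The cause of these shifts was not tested.

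Leaving out each library in turn gave 1589 to 2077 CPM for Il6 and 459 to 726 CPM for Osm in basophils, 82.9 to 98.8 CPM for Lif in ILC2, 256 to 296 CPM for Il6ra and 805 to 854 CPM for Stat3 in nonclassical monocytes, and 266 to 284 CPM for Il6st and 392 to 423 CPM for Osmr in fibroblasts. Fibroblast Il6 ran from 554 CPM without library 1 to 737 CPM without library 6.

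Shares of positive cells depend on depth. Without thinning, the share in the leading class was 85.9% instead of 75.1% for Il6, 68.8% instead of 53.3% for Osm, 76.9% instead of 54.0% for Il6ra, 95.4% instead of 56.6% for Il6st, 80.8% instead of 56.1% for Osmr and 93.8% instead of 82.7% for Stat3. At 5000 UMIs it was 71.3% for Il6ra, 71.3% for Il6st, 67.8% for Osmr and 94.1% for Stat3. The other shares at 5000 UMIs and the share for Lif stayed within the interval of the reported one.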

Other observations

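Fewer than 50 cells each were gated as erythroid (23), megakaryocyte (22) and endothelial (12), and they entered no class. The 12 endothelial cells had 59 Il6st UMIs (273 CPM), 52 Osmr UMIs (240 CPM), 23 Il6 UMIs in 3 cells and no Osm UMI. In the erythroid and megakaryocyte cells Il6 and Osmr were at 0 UMIs.

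The 1222 cells of the 2 unnamed clusters, with a median of 25889 UMIs per cell, had 10.1 CPM of Il6, 173 CPM of Osm, 10.7 CPM of Lif and 154 CPM of Il6ra. Of their cells, 54.4% had UMIs of both Il6ra and Il6st. In the cycling cluster of 879 cells, led by Nrg1, Il6 was found in 15.9% of cells at 12.3 CPM and Lif in 12.6% at 13.1 CPM.

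The table stores a zero in 39 entries of Il6, 564 of Osm, 37 of Lif and 6 of Osmr. Whether the ambient correction made them was not tested. For Osm, 73 of these entries were in pre-B cells and 42 in mature B cells, beside 111 and 70 such cells that kept a UMI.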
